A study of Mus musculus with 24 samples.

Results

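The genes described here encode the subunits of the mTOR complexes and their nearest regulators. They are the 10 genes Mtor, Rptor, Rictor, Mlst8, Mapkap1, Deptor, Tsc1, Tsc2, Rheb and Rps6kb1, taken by symbol from the 24421 genes counted, and all 10 were detected in every library. RNA was measured by poly(A) RNA-seq in 2 populations sorted from mouse bone marrow and 4 genotypes, with 3 mice per genotype, 12 mice and 24 libraries in all. One sort took common lymphoid progenitors (CLPs) as Lin-IL-7R+ cells. The other took B220+IgM-IL-7R+ cells, called B cell progenitors here. The genotypes were PLCgamma1+/+PLCgamma2+/+ (WT), PLCgamma1-/-PLCgamma2+/+ (Plcg1-deficient), PLCgamma1+/+PLCgamma2-/- (Plcg2-deficient) and PLCgamma1-/-PLCgamma2-/- (double-deficient). Plcg1 was deleted by a Cre that the interferon-responsive Mx-1 promoter drives, switched on by injecting polyI:C into adult donors, and Plcg2 was missing from the germline. Donor marrow was transplanted into lethally irradiated CD45.1+ recipients, and CD45.2+ cells were sorted weeks later, so every group came from a regenerated marrow. How many donors stood behind the 3 mice of a genotype is not given in the sources used here, so the p-values measure only the spread between these mice.

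mTOR is a serine/threonine kinase that works in a pair of complexes. In mTORC1 it is joined by raptor (Rptor), which recruits substrates, and in mTORC2 by rictor (Rictor) and mSIN1 (Mapkap1). mLST8 (Mlst8) sits in both complexes and DEPTOR (Deptor) inhibits both. The GTPase Rheb switches mTORC1 on at the lysosome, and the TSC1-TSC2 complex switches Rheb off. S6 kinase 1 (Rps6kb1) is a main mTORC1 substrate that carries the signal to translation. These complexes couple nutrients and cytokines to growth, and they are largely regulated by protein modification, which RNA levels do not show. Early B cell progenitors depend on the cytokine IL-7, and phospholipase C gamma, the enzyme missing here, produces second messengers downstream of many receptors. The comparisons ask whether the RNA of the mTOR machinery differed when 1 or both PLCgamma genes were missing, and between the 2 populations.

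The libraries held 4232345 to 33219995 reads on genes in CLPs and 1479582 to 25057223 in B cell progenitors. Reads that fell on no gene made up 17.9% to 45.2% of CLP libraries and 59.9% to 87.3% of B cell progenitor libraries. Reads of a gene relative to the scaled library size (CPM) are the level used throughout. Plcg2 fell in the double-deficient B cell progenitors (log2 difference from WT -1.35 ± 0.16, SE, n = 3 and 3, edgeR adjusted p = 0.00251) and CLPs (-1.10 ± 0.16, adjusted p = 0.0375). In CLPs that call is lost without 5 of the 6 libraries compared, taken 1 at a time (adjusted p 0.0616 to 0.229). Whole-gene Plcg1 counts did not separate the genotypes (-0.22 ± 0.34 in Plcg1-deficient and 0.46 ± 0.34 in double-deficient B cell progenitors), and counts over a whole gene need not show a deleted exon. The Y-linked gene Ddx3y lay between 1.44 and 19.1 CPM in all libraries that lack Plcg1 and between 98.0 and 191.1 CPM in all others, so the sex of the cells and the Plcg1 genotype cannot be told apart.

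The 2 sorted populations were not cleanly separated by their markers. Flt3, a receptor of lymphoid progenitors, reached 25.8 to 734 CPM in CLP libraries and 28.4 to 111 CPM in B cell progenitors. The summed level of 9 B cell progenitor markers was 1501 to 6880 CPM in CLPs and 2644 to 8229 CPM in B cell progenitors, and that of 7 CLP markers 1311 to 4117 CPM and 1329 to 5147 CPM. All 7 myeloid markers were detected, with sums of 2184 to 8238 CPM and 1302 to 7200 CPM. Of the erythroid markers, the globins Hba-a1 and Hbb-bs were at 0 in all 24 libraries. The 2 libraries of a mouse correlated at r = 0.869 to 0.968 over log2 CPM. In such bulk samples, fewer cells of a type and less RNA per cell cannot be told apart.

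Levels between members were compared per kilobase of exon (RPKM, the CPM divided by exon length). Rheb, the mTORC1 activator, had the highest level in both populations, with 49.9 ± 4.7 RPKM in CLPs and 64.1 ± 6.8 RPKM in B cell progenitors (SD, n = 12 libraries). Mapkap1, the mTORC2 subunit, came next with 19.5 ± 1.8 RPKM and 19.1 ± 1.5 RPKM. Rptor, Tsc2 and Mtor followed closely, at 15.7 ± 3.9, 15.9 ± 2.7 and 14.1 ± 2.2 RPKM in CLPs, and they did not differ beyond their spread. Rps6kb1 and Rictor had 11.4 ± 0.9 and 10.9 ± 1.8 RPKM in CLPs, again within 1 SD of each other. Tsc1 (8.95 ± 1.24) and Mlst8 (6.70 ± 0.82) lay below them. Deptor, the inhibitor, was the lowest of the 10 in both populations, at 2.30 ± 0.87 RPKM in CLPs and 2.40 ± 0.82 RPKM in B cell progenitors.

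The promoter windows are shown for the members that the results turn on, Mtor for the genotypes and Rheb for the populations. They are the 250 bases before the start of the gene from RefSeq (GRCm38.p6, the build of mm10), written 5′ to 3′ on the strand of the gene. Mtor lies on the forward strand of chromosome 4 (148448582 to 148557685) and its window at chr4:148448332-148448581. Rheb lies on the reverse strand of chromosome 5 (24802823 to 24842361) and its window at chr5:24842362-24842611. Capitals mark the motifs found on either strand.
Mtor: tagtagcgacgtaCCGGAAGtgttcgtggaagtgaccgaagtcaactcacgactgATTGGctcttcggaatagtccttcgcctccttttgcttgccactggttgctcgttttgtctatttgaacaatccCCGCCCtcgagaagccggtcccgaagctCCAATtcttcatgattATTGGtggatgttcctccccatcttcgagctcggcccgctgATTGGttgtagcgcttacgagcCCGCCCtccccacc
Rheb: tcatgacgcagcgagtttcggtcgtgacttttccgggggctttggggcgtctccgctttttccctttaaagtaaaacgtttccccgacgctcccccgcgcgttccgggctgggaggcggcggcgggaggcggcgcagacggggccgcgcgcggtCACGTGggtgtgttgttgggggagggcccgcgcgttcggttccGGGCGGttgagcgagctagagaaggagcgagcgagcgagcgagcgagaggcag
Both strands were searched for 7 motifs. Not all members' windows end at the gene start. That of Tsc1, chr2:28640983-28641232, lies mostly past its start at 28640993, and windows of Mapkap1, Rictor, Rps6kb1, Mlst8 and Tsc2 also reach into the gene. The E-box, CACGTG, stood in the Rheb window and in 6.02% of 32851 mouse windows of this length, and among the 9 members with a window in the table it was found in 1. The GC box, GGGCGG, was in 4 of those 9, Mtor and Rheb among them, and in 32.7% of all windows. An ETS-type motif, CCGGAAG, present in 6.91% of windows, was in 3 members' windows, Mtor among them. CCAAT was in 2, Mtor and Rictor, and in 33.8% of windows. The other motifs were found in no member's window. They were the TATA box in the form TATAAA (12.4% of windows), the cAMP response element in the form TGACGTCA (1.55%) and the palindrome TTCCGGAA (0.591%), which can share bases with the ETS-type motif. These are matches of letters, not binding sites. Deptor had no entry in the table.

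Comparing the genotypes, no member passed the threshold (a log2 fold change of 0.5 or more with an edgeR quasi-likelihood p, adjusted after Benjamini-Hochberg, not above 0.05) in any of 10 comparisons, 100 tests of a member in all. At an unadjusted p under 0.05 there were 6, where 2.84% to 16.6% of all genes had such a p over the 10 comparisons. DESeq2 called 1, Mtor in double-deficient against WT B cell progenitors. There edgeR called 134 of all genes, and the alternatives, DESeq2 among them, called 116 to 720. Between double-deficient and WT B cell progenitors the share of all 15001 genes called was 0.893%, and in CLPs 0.0921% of 15209. The median log2 difference of the 10 members was -0.04 in B cell progenitors, where it was -0.02 over all genes, and -0.02 in CLPs, where it was -0.03. The other shares called were 0.00658% and 0% in CLPs for Plcg1-deficient and Plcg2-deficient against WT, and 0.06% and 0.0467% in B cell progenitors. For double-deficient against Plcg1-deficient and Plcg2-deficient they were 0.0263% and 0.0526% in CLPs and 0.213% and 0.153% in B cell progenitors.

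**Figure D1:**
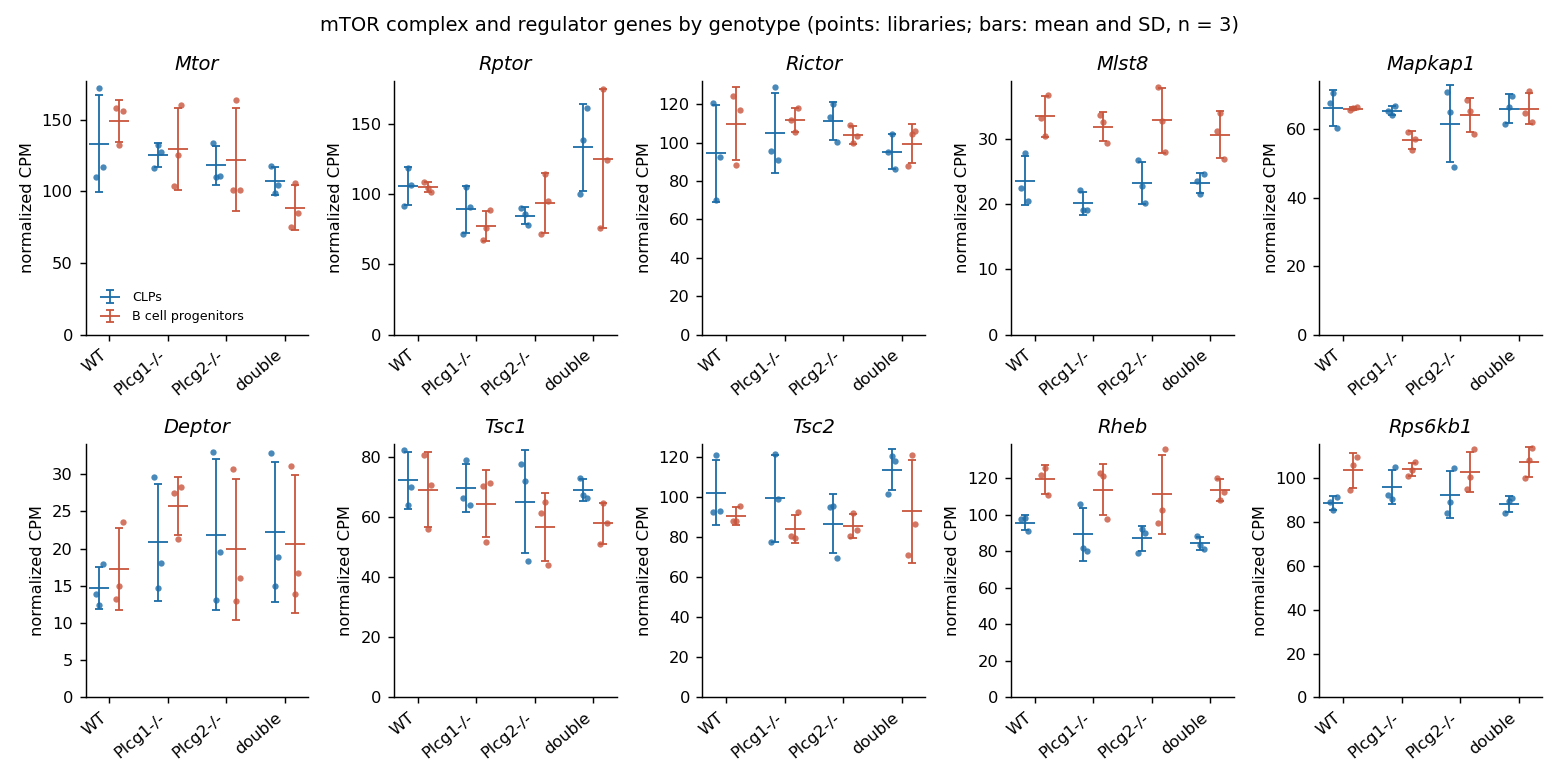
Level of each of the 10 genes in normalized CPM (vertical axis, from 0) in the 4 genotypes (double: double-deficient), CLPs in blue and B cell progenitors in red; points are libraries, bars the mean and SD of 3. The double-deficient B cell progenitors have 75.0 to 105.9 CPM of Mtor, all under the 132.2 to 158.2 CPM of WT, and most other groups overlap.

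Mtor, the kinase itself, showed the largest difference of the 10 between double-deficient and WT B cell progenitors. Its level was 158.2, 132.2 and 156.2 CPM in the WT mice. It was 75.0, 105.9 and 85.0 CPM in the double-deficient mice. Every double-deficient library lay below every WT library, which in this comparison held for 10.1% of all genes tested. The log2 difference was -0.75 (95% interval -1.22 to -0.27, n = 3 and 3), and the edgeR adjusted p over all genes was 0.175, so the difference was not called. DESeq2 gave -0.74 with an adjusted p of 0.0322 and called it. Over all genes, the alternatives to the edgeR fit, DESeq2 among them, called 116 to 720 in this comparison.

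The single deficiencies lay between these groups in mean. Mtor had 103.6, 125.5 and 160.2 CPM in Plcg1-deficient B cell progenitors. It had 101.2, 163.4 and 101.2 CPM in Plcg2-deficient ones. Both groups spread widely and overlapped with WT and with the double-deficient group. Against them the double-deficient group differed by -0.57 (95% interval -1.05 to -0.10, edgeR adjusted p = 0.217) and -0.49 (-0.97 to -0.01, adjusted p = 0.443), neither called. Each rested partly on the highest mouse of the single deficiency, since they were -0.36 without the third Plcg1-deficient library and -0.21 without the second Plcg2-deficient one.

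In CLPs, Mtor had 110.3, 171.9 and 116.9 CPM in WT and 117.9, 98.9 and 104.5 CPM in double-deficient mice. One WT mouse stood high and the groups overlapped. The log2 difference was -0.32 (95% interval -0.69 to 0.05, edgeR adjusted p = 0.702). Without that WT library it was -0.08. The difference between the populations in the effect of double deficiency on Mtor was -0.43 ± 0.28 (SE, edgeR adjusted p = 1.00), so a larger effect in B cell progenitors than in CLPs was not shown; 0% of 17212 genes passed this test.

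Rptor, the substrate-recruiting subunit of mTORC1, had its highest levels in double-deficient mice, but not in all of them. In double-deficient CLPs it had 100.3, 138.5 and 161.2 CPM, and in WT CLPs 91.4, 118.8 and 106.8 CPM. In double-deficient B cell progenitors it had 76.0, 175.0 and 124.2 CPM, against 108.4, 104.7 and 101.4 CPM in WT. The same double-deficient mouse, the first, was the lowest of its group in both populations, and the groups overlapped. The log2 differences from WT were 0.33 (95% interval -0.08 to 0.73, edgeR adjusted p = 0.721) in CLPs and 0.26 (-0.29 to 0.80, adjusted p = 0.687) in B cell progenitors. In B cell progenitors the second double-deficient mouse decided the sign, since the difference was -0.05 without it, and in CLPs the difference was 0.15 without the third.

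Against the single deficiencies the Rptor difference had an unadjusted p under 0.05 in 3 of 4 comparisons, and none was called. In CLPs the log2 difference was 0.64 (95% interval 0.23 to 1.05) from Plcg2-deficient, with 90.2, 85.9 and 78.3 CPM in that group. Those groups did not overlap, which held for 7.37% of genes in that direction, and Tsc2 was the other member to do so. The edgeR adjusted p was 0.506, so neither was called. The difference from Plcg1-deficient was 0.58 (adjusted p = 0.769) in CLPs and 0.68 (adjusted p = 0.210) in B cell progenitors. From Plcg2-deficient B cell progenitors it was 0.40 (95% interval -0.16 to 0.95, edgeR adjusted p = 0.608). Both values in B cell progenitors leaned on the second double-deficient mouse, and without it they were 0.36 and 0.08. Low levels in the single deficiencies also enter these differences. All 3 Plcg2-deficient CLP libraries lay below the 91.4 to 118.8 CPM of WT, as did 4.58% of genes. Plcg1-deficient B cell progenitors had 67.1, 75.9 and 88.7 CPM of Rptor, all below the 101.4 to 108.4 CPM of WT, as did 11.6% of genes.

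The B cell progenitor markers of the same libraries are set beside Rptor here. Double-deficient mice 2 and 3 had summed B cell progenitor markers of 5336 and 6880 CPM in CLPs, where 1 WT library had 5480 CPM and the others less. In B cell progenitors they had 8229 and 5846 CPM, above all other libraries of that population. The first double-deficient mouse had 2715 and 2757 CPM. The summed CLP markers of mice 2 and 3 were also the highest of the B cell progenitor libraries, at 5147 and 3150 CPM. These were mostly Dntt (2135 and 1143 CPM) and Rag1 (2065 and 1123 CPM), and Rag1 counts in both sums. Not every marker followed its sum. Flt3 had 58.5 and 76.8 CPM there, against 111 CPM in the first double-deficient mouse. Pax5, a B cell progenitor marker, had 153 and 109 CPM, against 159 to 218 CPM in WT. Other libraries did not line up in this way: the second Plcg1-deficient mouse had 4138 CPM of B cell progenitor markers with 75.9 CPM of Rptor in B cell progenitors, and 2568 CPM with 104.9 CPM in CLPs. The part of cell composition in the Rptor differences was not tested.

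**Figure D2:**
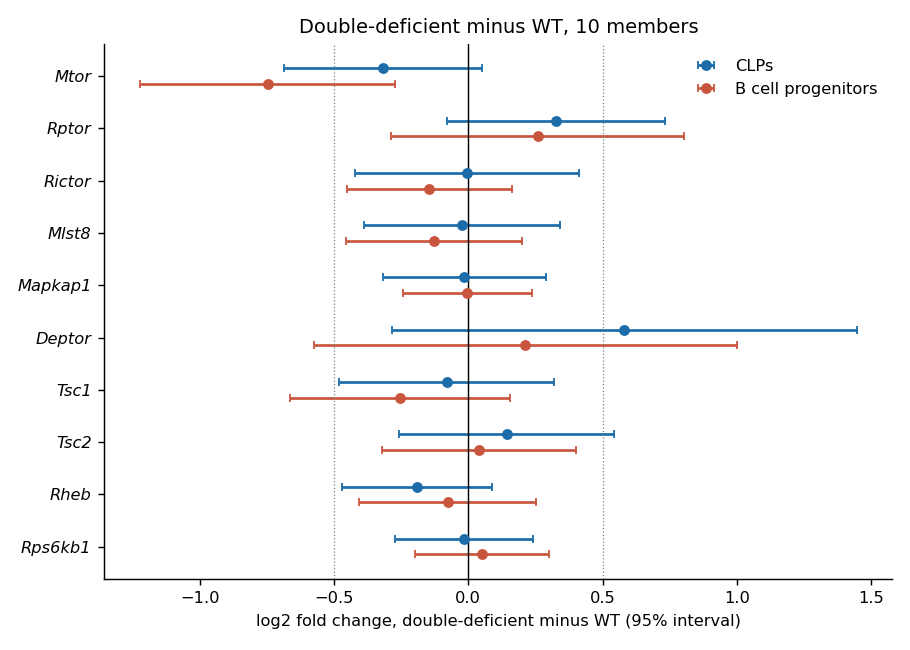
Log2 fold change, double-deficient minus WT, of the 10 genes (horizontal axis) with its 95% interval from edgeR, for CLPs in blue and B cell progenitors in red; dotted lines mark 0.5 in each direction. For Mtor in B cell progenitors (-0.75) the interval lies wholly on one side of 0, and all others include 0.

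The remaining subunits of the complexes differed little between genotypes. Rictor, of mTORC2, differed between double-deficient and WT by -0.00 (95% interval -0.42 to 0.41) in CLPs and by -0.14 (-0.45 to 0.16) in B cell progenitors. Mapkap1, its partner, differed by -0.01 (-0.32 to 0.29) and -0.00 (-0.24 to 0.24). Mlst8, which both complexes share, differed by -0.02 (-0.39 to 0.34) and -0.13 (-0.45 to 0.20). For these 3 genes the intervals left out a change of more than 0.5 in either direction. Mapkap1 was also lower in all 3 Plcg1-deficient B cell progenitors (59.2, 54.0 and 57.2 CPM) than in WT (65.5, 66.0 and 66.4 CPM), as was Rptor, and 11.6% of genes were lower in that way. The log2 difference of Mapkap1 was -0.20 and was not called.

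Deptor, the inhibitor of mTOR, was high in CLPs of 1 mouse in each deficient group. There it had 29.7, 32.9 and 32.8 CPM in the first mouse of the Plcg1-deficient, Plcg2-deficient and double-deficient groups. In the same 3 mice the B cell progenitors had 27.5, 30.7 and 31.1 CPM. The other 9 CLP libraries lay between 12.4 and 19.6 CPM, and the other B cell progenitors at 28.3 CPM or below. These 3 mice also had the highest summed myeloid markers of all, 8238, 7493 and 7493 CPM in CLPs and 7192, 7200 and 6301 CPM in B cell progenitors. The part of myeloid RNA in the Deptor level was not tested. None of these mice was WT, and the log2 difference between double-deficient and WT was 0.58 (95% interval -0.29 to 1.45, edgeR adjusted p = 0.773) in CLPs. In B cell progenitors it was 0.21 (-0.57 to 1.00). Both rested on the first double-deficient mouse, without which they were 0.18 and -0.17. All 3 Plcg1-deficient B cell progenitor libraries were fairly high, with 27.5, 21.3 and 28.3 CPM against 13.2 to 23.5 CPM in WT, and the groups overlapped. That log2 difference was 0.59 (95% interval -0.18 to 1.37, edgeR adjusted p = 0.475) and was not called.

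**Figure D3:**
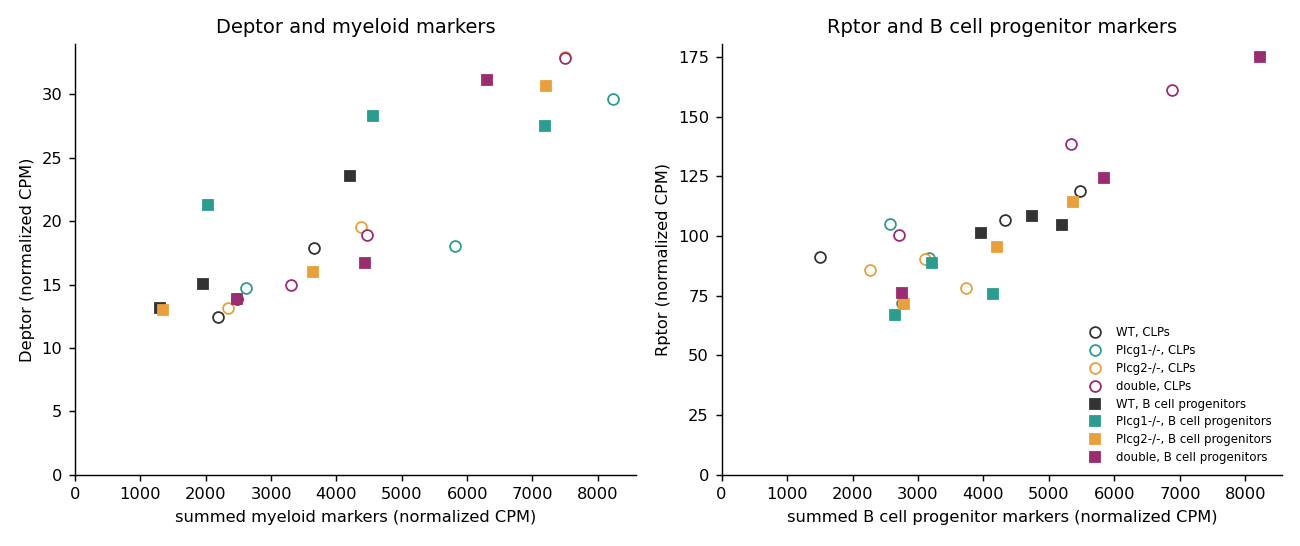
Left, Deptor against the sum of 7 myeloid markers; right, Rptor against the sum of 9 B cell progenitor markers, all in normalized CPM; 1 point per library, CLPs as open circles and B cell progenitors as squares, coloured by genotype. The 6 libraries with the highest myeloid sums have 27.5 to 32.9 CPM of Deptor, and Rptor reaches 175.0 CPM at the highest B cell progenitor sum.

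Among the regulators, Tsc1 and Tsc2, which hold Rheb in check, ran from 45.5 to 82.4 and from 69.7 to 121.6 CPM in CLPs. In B cell progenitors they ran from 43.9 to 80.6 and from 71.1 to 121.2 CPM. Double-deficient and WT differed by -0.26 (95% interval -0.67 to 0.15) in Tsc1 and 0.04 (-0.32 to 0.40) in Tsc2 in B cell progenitors, and by -0.08 (-0.48 to 0.32) and 0.14 (-0.26 to 0.54) in CLPs. Rheb was lower in each double-deficient CLP library (88.1, 83.4 and 81.5 CPM) than in each WT one (97.9, 98.1 and 90.9 CPM), as were 7.32% of genes. The log2 difference was -0.19 (-0.47 to 0.09, edgeR adjusted p = 0.766). The differences of Rps6kb1, the downstream kinase, were -0.02 (-0.27 to 0.24) in CLPs and 0.05 (-0.20 to 0.30) in B cell progenitors.

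Comparing the populations, 3 members were higher in the B cell progenitors of all 12 mice than in the CLPs of the same mouse, and they were Mlst8, Rheb and Rps6kb1. Of all 17212 genes tested, 7.48% were higher and 4.85% lower in all 12 mice. The share of reads on no gene was 59.9% to 87.3% in B cell progenitor libraries and 17.9% to 45.2% in CLP libraries, without overlap. All 12 mice share this difference between the 2 sets of libraries, so for every member it cannot be told apart from the populations. Averaged over the 4 genotypes, Mlst8 differed by 0.52 ± 0.08 on the log2 scale (SE, edgeR adjusted p = 4.12e-05), Rheb by 0.36 ± 0.07 (adjusted p = 5.28e-04) and Rps6kb1 by 0.20 ± 0.05 (adjusted p = 0.00929). Only Mlst8 also reached the fold limit of 0.5 and was called, where the share of all genes called was 14.4%. Leaving out 1 library took it under that limit in 5 of 24 cases, with 0.44 as the lowest value. Within genotypes the shares called were 3.5% in WT, 3.78% in Plcg1-deficient, 3.21% in Plcg2-deficient and 3.24% in double-deficient mice, and Mlst8 was called in Plcg1-deficient mice alone (0.67 ± 0.15, adjusted p = 0.0152). It lost that call without any of 3 libraries of the 6, B cell progenitor library 2 (adjusted p = 0.0663) and CLP libraries 2 and 3 (0.0809 and 0.0615). Whether genotypes differed in this was tested only for double-deficient against WT, where the difference was -0.11 and not called.

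Mlst8 had 22.5, 27.8 and 20.5 CPM in WT CLPs and 33.2, 30.4 and 36.6 CPM in WT B cell progenitors. In Plcg1-deficient mice it had 22.2, 19.1 and 19.1 CPM and then 33.6, 32.6 and 29.4 CPM. In each of the 4 genotypes the 3 B cell progenitor libraries lay above the 3 CLP libraries. Of all genes tested, 12.5% did so in WT, 14.7% in Plcg1-deficient, 11% in Plcg2-deficient and 11.9% in double-deficient mice. The log2 differences were 0.51 in WT, 0.50 in Plcg2-deficient and 0.40 in double-deficient mice (edgeR adjusted p 0.0718, 0.0919 and 0.204).

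Rheb had 97.9, 98.1 and 90.9 CPM in WT CLPs and 121.8, 125.5 and 110.6 CPM in WT B cell progenitors. In double-deficient mice it had 88.1, 83.4 and 81.5 CPM and then 119.9, 108.3 and 112.2 CPM. The populations did not overlap in WT, Plcg2-deficient and double-deficient mice, where 12.5%, 11% and 11.9% of all genes lay above in this way. They overlapped in Plcg1-deficient mice. The log2 difference ran from 0.32 to 0.43 over the 4 genotypes. Rps6kb1 had 84.2 to 105.2 CPM in CLPs and 94.8 to 113.7 CPM in B cell progenitors.

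**Figure D4:**
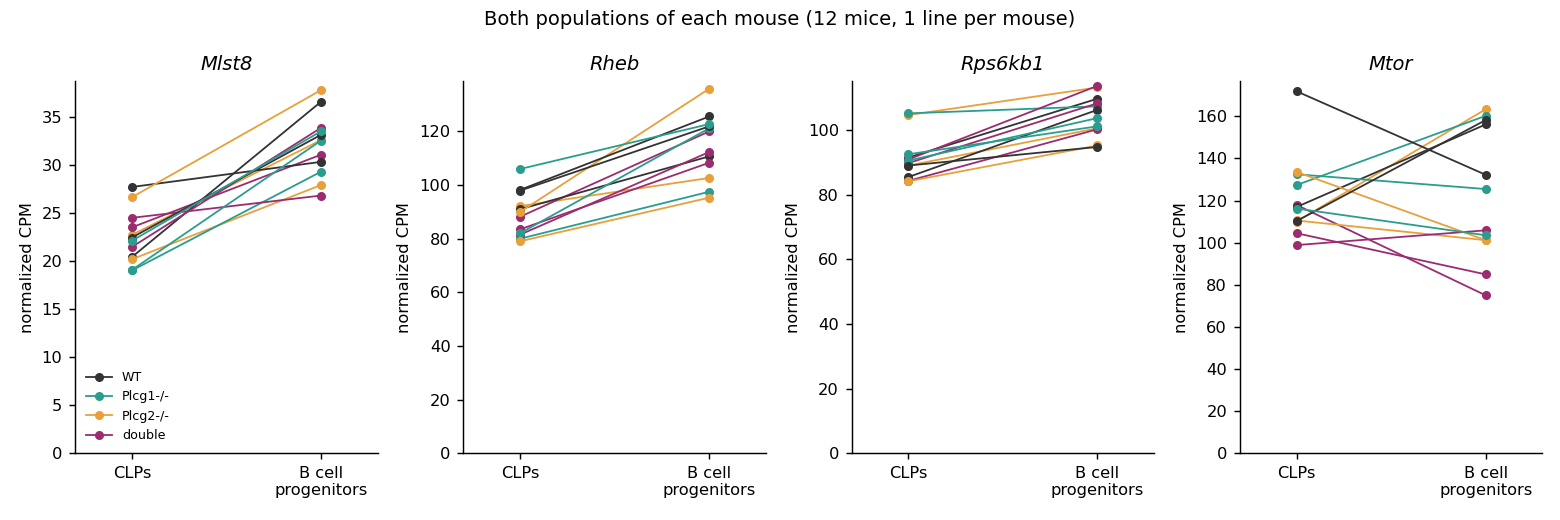
Normalized CPM of Mlst8, Rheb, Rps6kb1 and Mtor (vertical axes, from 0) in both populations of each mouse, 1 line per mouse, coloured by genotype. All 12 lines rise for Mlst8, Rheb and Rps6kb1, and 5 of 12 rise for Mtor.

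The difference between the populations was larger for genes whose exons overlap a gene on the other strand, and Mlst8 is one of them. Of the 3360 exon bases of Mlst8 (reverse strand of chromosome 17, 24473550 to 24479114), 29.7% lie on exons of Bricd5 on the other strand. Bricd5, all of whose exon bases overlap a gene on the other strand, had 0 reads in all 12 CLP libraries, which allows up to 0.709 CPM in the smallest library, and 11.3 to 16.5 CPM in every B cell progenitor library. Over all genes the median log2 difference between populations was 0.06 where no exon base overlapped a gene on the other strand (14301 genes). It was 0.20 for overlaps of over 10 to 20% (427 genes), 0.41 for over 20 to 40% (342 genes) and 0.79 for over 40 to 80% (138 genes). Mlst8, at 0.52, lay within the interquartile range of the genes with over 20 to 40% (-0.02 to 1.26). Reads left out as ambiguous made up 1.06% to 1.44% of CLP libraries and 0.110% to 0.420% of B cell progenitor libraries. Whether strand was used in counting is not given in the sources used here, and its part in the Mlst8 difference was not tested. Rheb had no such overlap, and Rps6kb1 1.93%.

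**Figure D5:**
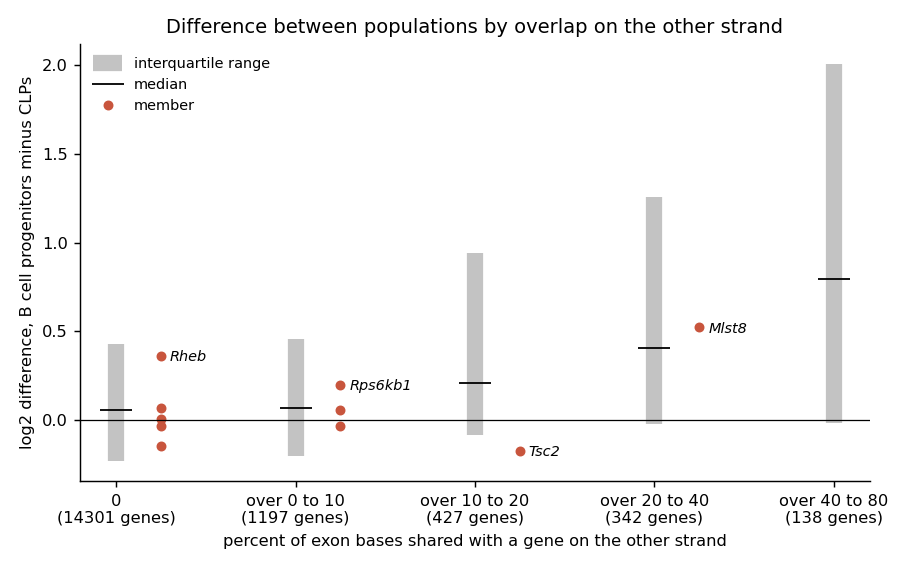
Log2 difference between B cell progenitors and CLPs, averaged over genotypes (vertical axis), by the percentage of a gene's exon bases that a gene on the other strand shares (horizontal axis); black lines are medians of all genes, grey bars interquartile ranges, red points the 10 members. The median rises from 0.06 without overlap to 0.79 at over 40 to 80%, and Mlst8 (0.52) lies near the median of its class.

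The other 7 members were not called between the populations on average. The log2 difference was 0.00 for Mtor (95% interval -0.21 to 0.21), -0.04 for Rptor (-0.28 to 0.21), 0.07 for Rictor (-0.11 to 0.25) and -0.04 for Mapkap1 (-0.16 to 0.09), so that none of these 4 intervals reached 0.5. Deptor differed by 0.05 (-0.36 to 0.47), Tsc1 by -0.15 (-0.35 to 0.05) and Tsc2 by -0.18 (-0.37 to 0.01). Tsc2 kept its sign in every alternative run (-0.26 to -0.13), and its adjusted p, 0.149, fell to 0.0395 without the second double-deficient B cell progenitor library, still under the fold limit. Tsc2 shares 10.9% of its exon bases with Pkd1 on the other strand. The median over the 10 members was 0.03 and over all genes 0.08.

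How the members varied together was described over the 24 libraries, after taking off the mean of each population. Rptor and Tsc2 were the most alike of the 45 pairs (Pearson r = 0.81), and Mlst8 and Rps6kb1 the least (-0.66). Of 14173 genes, Polq (0.88), Recql4 (0.88) and Paxip1 (0.87) were most like Mtor. Il16 (0.96), Cep250 (0.95) and Ppp1r18 (0.95) were most like Rptor, and Suco, Camk1d and Aff4 (each 0.82) most like Rictor. The points share mice, depth and cell composition, so these values only describe the libraries.

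The wider pathway was covered by 6 lists with 79 gene symbols, of which 76 were tested in B cell progenitors and 74 in CLPs. The symbols Castor1 and Castor2 were listed but are not among the genes counted. None of the tested genes was called between genotypes by edgeR on all 12 libraries of a population, fitted by genotype alone. With the replicate number added to that fit, Tfeb and Lamtor4 were called in double-deficient against WT B cell progenitors. Under the alternatives the count for double-deficient against WT ran from 0 to 3 in B cell progenitors and from 0 to 1 in CLPs. Over all genes it ran from 116 to 720 and from 0 to 169. The count of listed genes also ran from 0 to 1 for double-deficient against Plcg2-deficient in each population, and was 0 in the other comparisons. Between double-deficient and WT, 6 had an unadjusted p under 0.05 in B cell progenitors, where 12.3% of all genes did, and 2 in CLPs, where 7.52% did. The median log2 difference over the lists was -0.04 in B cell progenitors and -0.00 in CLPs.

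Of 19 mTORC1 substrates and effectors, Tfeb, the transcription factor of lysosomal genes that mTORC1 keeps out of the nucleus, had 80.9, 83.3 and 83.7 CPM in WT and 51.8, 59.7 and 54.8 CPM in double-deficient B cell progenitors. The groups did not overlap, which held for 10.1% of genes in that direction. The log2 difference was -0.58 ± 0.13 (SE, edgeR adjusted p = 0.0685), not called. DESeq2 called it (adjusted p = 0.00167), and so did edgeR on these 2 groups alone (adjusted p = 0.0488). Lpin1, a phosphatidate phosphatase, had the next largest value of that list, 0.52 ± 0.31.

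Of 13 Rag GTPase and Ragulator genes, which bring mTORC1 to the lysosome, Lamtor4 had 29.0, 29.4 and 30.6 CPM in WT and 65.2, 40.2 and 47.9 CPM in double-deficient B cell progenitors. Its log2 difference was 0.77 ± 0.26 (edgeR adjusted p = 0.252), and that of Rragd 0.81 ± 0.52 (adjusted p = 0.546). DESeq2 on the 2 groups alone called Lamtor4 (adjusted p = 0.0298). The energy sensor list was led by Prkaa2, a catalytic subunit of AMPK, with 9.13, 3.43 and 5.73 CPM in WT and 13.1, 13.9 and 18.7 CPM in double-deficient mice. Its difference was 1.31 ± 0.55 (edgeR adjusted p = 0.355), not called, while DESeq2 on the 2 groups alone called it (adjusted p = 0.0224). In CLPs Prkaa2 had 2.31, 3.65 and 7.96 CPM in WT and 9.01, 28.1 and 49.4 CPM in double-deficient mice. These groups did not overlap either, which held for 6.27% of genes in that direction. The log2 difference of 2.58 ± 0.93 (edgeR adjusted p = 0.518) was not called. Strada, of the same list, differed by 0.19 ± 0.13 in B cell progenitors.

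In the other lists the largest differences had wide errors. Of 9 further subunits and partners, Prr5l, an mTORC2 component, differed by 0.89 ± 0.66 and Tti1, a chaperone partner, by -0.28 ± 0.20. Of the GATOR and amino acid sensor genes, of which 16 were tested, Gatsl3 differed by 0.67 ± 0.65 and Nprl2 by -0.33 ± 0.22. Gatsl3 had 2.27 CPM or less in every library compared. Of 7 mTORC2 substrates, Sgk2, near the floor at 0.786 CPM or less in every library compared, differed by -1.56 ± 1.43. Sgk3 differed by 0.73 ± 0.39, and none of these 6 genes was called.

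Between the populations, 6 of the listed genes were called in the average over genotypes, where 14.4% of all genes were. The count ran from 4 to 12 with 1 library left out, with 12 and 10 without Plcg2-deficient B cell progenitor library 1 and CLP library 3 and 11 and 10 without WT B cell progenitor library 3 and CLP library 2. It ran from 6 to 37 under the other alternatives, 37 being the count without the fold limit. Over all 17212 genes the count ran from 1543 to 5188 under those alternatives. One of the 6, Prkag3, passed the filter on low counts only through B cell progenitor libraries, so its call is not used. Tti2, a partner of mTOR in complex assembly, was higher in B cell progenitors in all 12 mice (0.80 ± 0.08, edgeR adjusted p = 3.58e-07), and 14.6% of its exon bases overlap a gene on the other strand. Gatsl3 (-0.96 ± 0.31), Lpin1 (-0.92 ± 0.22), Prr5 (-0.73 ± 0.22) and Lamtor4 (-0.50 ± 0.13) were lower, with edgeR adjusted p between 0.00342 and 0.0220. Within mice their median log2 differences were -0.90, -0.57, -0.27 and -0.40, and 2, 2, 2 and 1 of 12 mice went the other way. Prr5 had 66.7 CPM in WT CLP library 1. It had 55.4 and 52.5 CPM in Plcg1-deficient and Plcg2-deficient CLP library 2, and at most 30.5 CPM in the other CLP libraries. Gatsl3 lay near the floor, with 0.63 to 3.33 CPM in B cell progenitors and 1.42 to 6.07 CPM in CLPs. Its 0.655 CPM in the first double-deficient B cell progenitor library was under the floor of 3 counts there, 1.05 CPM. Of the 19 mTORC1 substrates and effectors, 14 lay below 0, with a median of -0.23 where that of all genes was 0.08.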

How the data were processed

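The authors prepared libraries with NEBNext Ultra from poly(A) RNA, sequenced them on a NextSeq 500, aligned reads to mm10 with STAR (2.5.0a in the submitters' processing notes) and deposited raw counts per RefSeq gene. The tool and strand setting of counting are not given in the sources used here. The closing rows, which hold reads assigned to no gene or to several, were left out of library sizes. Counts were filtered with filterByExpr, scaled by TMM and tested with edgeR 4.0.16 (quasi-likelihood, Benjamini-Hochberg) in R 4.3.3, with 1 fit of 12 libraries per population and 1 of all 24 for the populations, and calls needed an adjusted p of at most 0.05 and a log2 fold change of at least 0.5. DESeq2 1.42.0, other scaling and filters, blocks, thinning and left-out libraries were alternatives. Log2 CPM used a prior count of 2. Intervals at 95% and the floor of 3 counts per library cover counting error or the spread between libraries only. Positions and promoters came from RefSeq (GRCm38.p6), exon lengths and overlaps from GENCODE. Replicates of a group differed by more than sampling noise (chi-square per degree of freedom at least 8.28).

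Mouse numbers in the labels link both sorted populations of each mouse, and the deviations of the linked libraries from their group means correlated at 0.11 on average (-0.35 to 0.53). Members and gene lists were chosen with earlier results of these data known. The text names the 10 members, Plcg1 and Plcg2, listed genes called against WT or otherwise the 2 largest differences per list in double-deficient B cell progenitors, and the 3 genes most like Mtor, Rptor and Rictor. Bricd5, Pkd1 and the average over genotypes were added, and the marker genes and listed genes named between populations chosen, after values were seen.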

Additional observations from a re-analysis of the deposited data

How the results depend on the processing

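In the comparisons of genotypes no member was called under any alternative, with 1 exception: Mtor in double-deficient against WT B cell progenitors, where 1 member was called by DESeq2 (adjusted p = 0.0322) and by DESeq2 on those 6 libraries alone (adjusted p = 0.00200). Its log2 difference was -0.89 to -0.64 with 1 library left out and -0.80 to -0.70 under the other alternatives. Those other alternatives called 116 to 720 of all genes in that comparison. Between the populations, DESeq2 called 1 member in WT mice (Mlst8), where the count over all genes ran from 405 to 818 under the alternatives. Leaving out the fold limit raised the count of members in the average over genotypes from 1 to 3 (Mlst8, Rheb and Rps6kb1). The count over all 17212 genes in that average also moved, from 1543 to 5188 under the alternatives. Without the filter on low counts the count of members was 0 in that average and 0 in Plcg1-deficient mice. With 1 library left out and the genes tested held fixed, both counts ran from 0 to 1.

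The sign turned for the following log2 differences, none of which was called. Between double-deficient and WT B cell progenitors, Mapkap1 was 0.0050 with DESeq2, 0.0026 with RLE size factors, 0.0033 without the filter and 0.063 after thinning to the smallest library, and after thinning Tsc2 was -0.0074 and Nprl2 0.037. In CLPs, without the filter, Mapkap1 was 0.020, Mlst8 0.013, Rictor 0.023 and Rps6kb1 0.017. There Mlst8 was 0.0066 with DESeq2 and 0.086 after thinning, Rictor 0.0021 with DESeq2, 0.0048 with RLE and 0.0046 after thinning, and Rps6kb1 0.085 with the share of reads on no gene as a covariate. Between the populations, Mtor was -0.0047 with DESeq2, -0.0072 with RLE, -0.080 without the filter and -0.0072 with the mouse as a replicate block, while Deptor was -0.022 and Rictor -0.014 without the filter, and Mapkap1 0.017 after thinning. The causes were not tested.

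With 1 library left out, these ran in B cell progenitors from -0.17 to 0.52 (Deptor), -0.053 to 0.046 (Mapkap1), -0.00079 to 0.11 (Rps6kb1), -0.055 to 0.51 (Rptor) and -0.19 to 0.20 (Tsc2). In CLPs they ran from -0.080 to 0.048 (Mapkap1), -0.12 to 0.12 (Mlst8), -0.16 to 0.22 (Rictor), -0.049 to 0.0086 (Rps6kb1) and -0.14 to 0.032 (Tsc1). Between populations they ran from -0.11 to 0.16 (Deptor), -0.068 to 0.038 (Mtor), -0.020 to 0.12 (Rictor) and -0.12 to 0.027 (Rptor).

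Replicate numbers are shared by different mice across genotypes, and what they stand for is not given in the sources used here. In CLPs of different genotypes, deviations from group means correlated at 0.21 on average with the same number and at -0.10 with different numbers. In B cell progenitors these averages were 0.06 and -0.03. Whether the numbers mark a batch was not tested. As a replicate block, the numbers gave Mtor in double-deficient against WT B cell progenitors -0.77 (edgeR adjusted p = 0.0546) and called no member. This block called Tfeb (adjusted p = 0.0293) and Lamtor4 (0.0469). DESeq2 on the 2 groups alone called Tfeb (0.00713), Lamtor4 (0.0298) and Prkaa2 (0.0224) there. With the replicate block, the count over all genes rose there from 134 to 550. The mouse as a block kept the call of Mlst8 (0.52, adjusted p = 3.48e-04). Over all genes, the count for double-deficient against WT B cell progenitors ran from 116 to 720 under the alternatives. It ran from 38 to 127 with 1 library left out. In CLPs, from 14, it ran from 0 to 169 and from 0 to 40. The average difference between populations had 1543 to 5188 genes called where it had 2476. The smallest libraries held 24 reads of Deptor and 152 of Mtor, which limits what small differences could be seen.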
